A study of Mus musculus with 24 samples.

Results

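The LIM homeobox genes Lhx1, Lhx2, Lhx3, Lhx4, Lhx5, Lhx6, Lhx8, Isl1, Lmx1a and Lmx1b were followed as a family through supporting cell differentiation in the mouse fetal gonad. They were chosen by name, as 10 of the 22350 protein-coding genes annotated on autosomes and chromosome X, and all 10 were found in the annotation and described. Histone H3, H3K4me3 and H3K27me3 were profiled by native ChIP-seq in 24 samples, 2 replicates of each antibody in each of 4 sorted populations from C57BL/6 x CD1 embryos. XY and XX progenitor cells were sorted at E10.5 by the SF1-eGFP reporter, Sertoli cells from XY gonads at E13.5 by the Sox9-CFP reporter, and pregranulosa cells (labelled granulosa cells) from XX gonads at E13.5 by TESM-CFP. Gonads were pooled before sorting, each population was whatever its reporter marked, and no group carried a deletion or a treatment. For H3K4me3 and H3K27me3 a list of called regions was given for each population, which the series description gives as made from both replicates. The headers name joined tag directories for 4 lists, the Sertoli headers name none, and the pregranulosa lists have no header, so pooling rests there on the series description. With 1 list a population there was therefore no replicate spread, no comparison between populations could be tested, and each value below stands for 1 list.

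LIM homeodomain proteins are transcription factors that carry a pair of LIM zinc-finger domains ahead of a DNA-binding homeodomain. The LIM domains bind the adaptor LDB1, which joins these factors into complexes that specify neurons, pituitary, eye, limb, heart, kidney and duct tissues. H3K27me3 is laid down by Polycomb repressive complex 2 and marks silenced developmental genes, while H3K4me3 marks promoters that are active or poised. A promoter that carries both is called bivalent. Lhx9, the family member known for its role in formation of the gonad itself, is not among the 10 and served as a comparison, as did Isl2.

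The lists came from unequal depth. The file headers gave 10162534 tags for H3K4me3 in the XY progenitor list, 49254553 in the XX progenitor list and 31104760 in the Sertoli list. For H3K27me3 the same lists rested on 6470151, 33185400 and 44446456 tags, and the depth behind the pregranulosa lists is unknown. Regions no wider than 1001 bp made up 48.2% of the XY progenitor H3K4me3 list, compared with 24.9% of the XX progenitor list, 31.7% of the Sertoli list and 30.9% of the pregranulosa list. The part of depth in the differences between populations given below was not tested. Marker promoters matched the sorted populations in part. All 5 early gonad promoters were bivalent in both progenitor populations. So were all 5 pregranulosa, all 3 mesonephros and duct and 3 of 5 Sertoli promoters, so this state did not single out early gonad genes. All 5 Sertoli promoters had H3K4me3 without H3K27me3 in Sertoli cells, but Amh had that state in both progenitor populations too. In pregranulosa cells 3 of 5 pregranulosa promoters had H3K4me3 without H3K27me3, while Foxl2 and Fst had both marks. Of 4 germ cell promoters 1, 2, 3 and 2 had H3K4me3 in XY progenitor, XX progenitor, Sertoli and pregranulosa cells. Dazl had it without H3K27me3 throughout, Dppa3 had both marks in XX progenitor and Sertoli cells and H3K4me3 alone in pregranulosa cells, and Pou5f1 had both marks in Sertoli cells. Of 4 endothelial and 3 blood genes, Kdr had both marks in every population, and Cdh5 and Gata1 had H3K4me3 alone, each in the pregranulosa list only. Steroidogenic promoters with H3K4me3 alone numbered 1, 2, 2 and 3 of 3 in XY progenitor, XX progenitor, Sertoli and pregranulosa cells, and the part of other cell types in the results was not tested. All 4 neural markers in the annotation (of 5 listed) and all 3 mesonephros and duct markers had H3K27me3 in every population.

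A promoter was taken as the 2 kb on either side of the 5′ end of the gene, a window of 4001 bp, and was counted as marked where a listed region overlapped it by at least 1 bp. H3K27me3 was present at the promoters of all 10 LIM homeobox genes in all 4 populations, whereas across protein-coding genes it was present at 23.1% of promoters in XY progenitor, 24.8% in XX progenitor, 23.6% in Sertoli and 23.7% in pregranulosa cells. It was listed in every population at 15.9% of protein-coding promoters. The mark covered the whole window in all 4 populations at 9 of the 10 genes, compared with 10.2% of protein-coding genes. The exception was Lhx3, where 3506 of the 4001 bp were covered in XX progenitor cells and 3839 bp in pregranulosa cells. From E10.5 to E13.5 no member lost the call, while 77.4% of the 5153 promoters marked in XY progenitor cells were also marked in Sertoli cells and 82.1% of the 5547 marked in XX progenitor cells were also marked in pregranulosa cells.

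H3K4me3 was less uniform. It reached the promoter window of 9 of the 10 genes in each progenitor population and 8 each in Sertoli and pregranulosa cells, beside 64.2%, 66.0%, 64.9% and 66.4% of protein-coding promoters. Because H3K27me3 was present throughout, the bivalent members numbered the same 9, 9, 8 and 8, compared with 20.4%, 22.4%, 18.7% and 20.4% of all protein-coding promoters. Lhx1, Lhx2, Lhx4, Lhx6, Lhx8, Isl1, Lmx1a and Lmx1b were bivalent in all 4 populations, a state held by 13.7% of protein-coding genes. Lhx5 and Lhx3 were not. Lhx5 was bivalent in XX progenitor cells and had H3K27me3 alone elsewhere, a pattern shared by 35 protein-coding genes, itself included. Lhx3 was bivalent in XY progenitor cells and had H3K27me3 alone elsewhere, as did 6 protein-coding genes with Lhx3 among them. Read against the 3560 protein-coding genes with H3K27me3 in every population, the bivalent share of the family was close to the background, since 89.8%, 94.1%, 88.6% and 92.8% of those promoters also carried H3K4me3. The H3K4me3 calls depended on narrow regions in XY progenitor cells, where 5 members (Lhx1, Lhx4, Isl1, Lmx1a and Lmx1b) had a region wider than 1001 bp in the window. Lhx2, Lhx3, Lhx6 and Lhx8 had there only regions of that width, the most frequent in the list. The Sertoli call at Lmx1b also rested on a region of 1001 bp. Requiring at least 50% of the window to be covered left 4 members with H3K4me3 in Sertoli cells (Lhx1, Lhx4, Lhx6 and Isl1). It left 7 in XY progenitor, 8 in XX progenitor and 6 in pregranulosa cells. Over all protein-coding genes the median window was covered by 38.5%, 56.1%, 47.0% and 53.7% in XY progenitor, XX progenitor, Sertoli and pregranulosa cells.

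**Figure D1:**
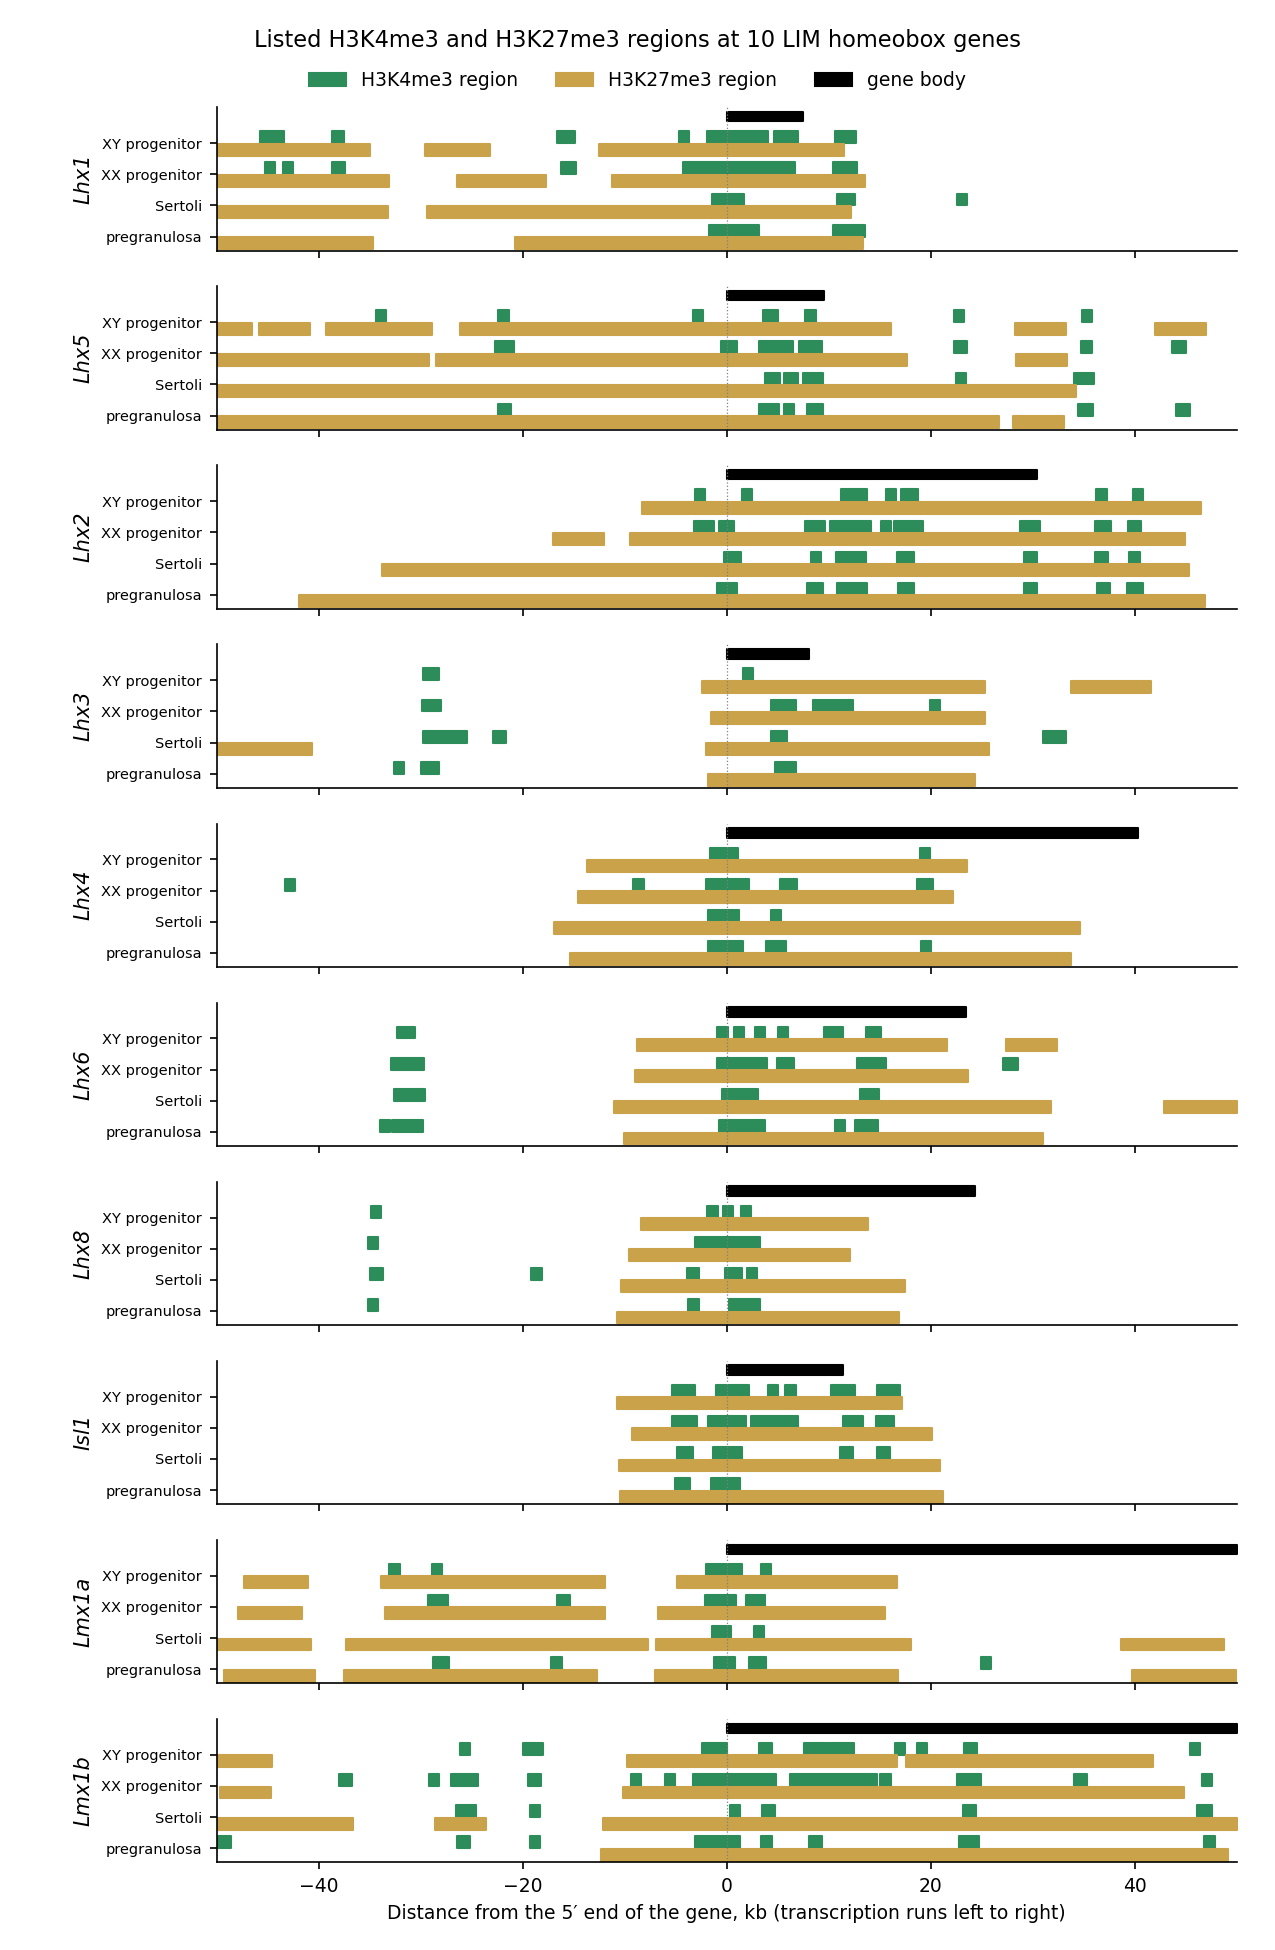
Listed H3K4me3 regions (green) and H3K27me3 regions (ochre) within 50 kb of the 5′ end of each gene, drawn in the direction of transcription, with 1 row for each of the 4 populations and the gene body in black. In every row an H3K27me3 region spans position 0, and the H3K4me3 regions inside it are shorter and differ in number between populations at every gene except Lmx1a.

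The H3K27me3 regions at these promoters were wide. Their median width was 27.8 kb in XY progenitor, 31.0 kb in XX progenitor, 42.2 kb in Sertoli and 37.6 kb in pregranulosa cells, where the marked promoters of all autosomal protein-coding genes had medians of 8.06, 8.91, 11.6 and 10.4 kb. The narrowest member region in each population was 21.6, 21.7, 24.9 and 23.9 kb, and the widest was 54.8, 55.0, 119 and 88.8 kb. The member median lay at the 92.4th, 93.4th, 92.2nd and 93.3rd percentile of those autosomal promoters. All 10 members had a wider region in Sertoli than in XY progenitor cells, with a median ratio of 1.40 that ran from little over 1 at Lhx3 to 3.68 at Lmx1b, while 77.6% of 3927 autosomal genes marked in both had a wider one, with a median ratio of 1.27. From XX progenitor to pregranulosa cells 9 members had a wider region and Lhx3 a narrower one, with a median ratio of 1.27 (range 0.98 to 1.74), compared with 67.5% wider and a median of 1.12 among 3991 autosomal genes. The XY progenitor H3K27me3 list was the shallowest of the 3 of known depth, and no spread is available for any of these ratios.

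**Figure D2:**
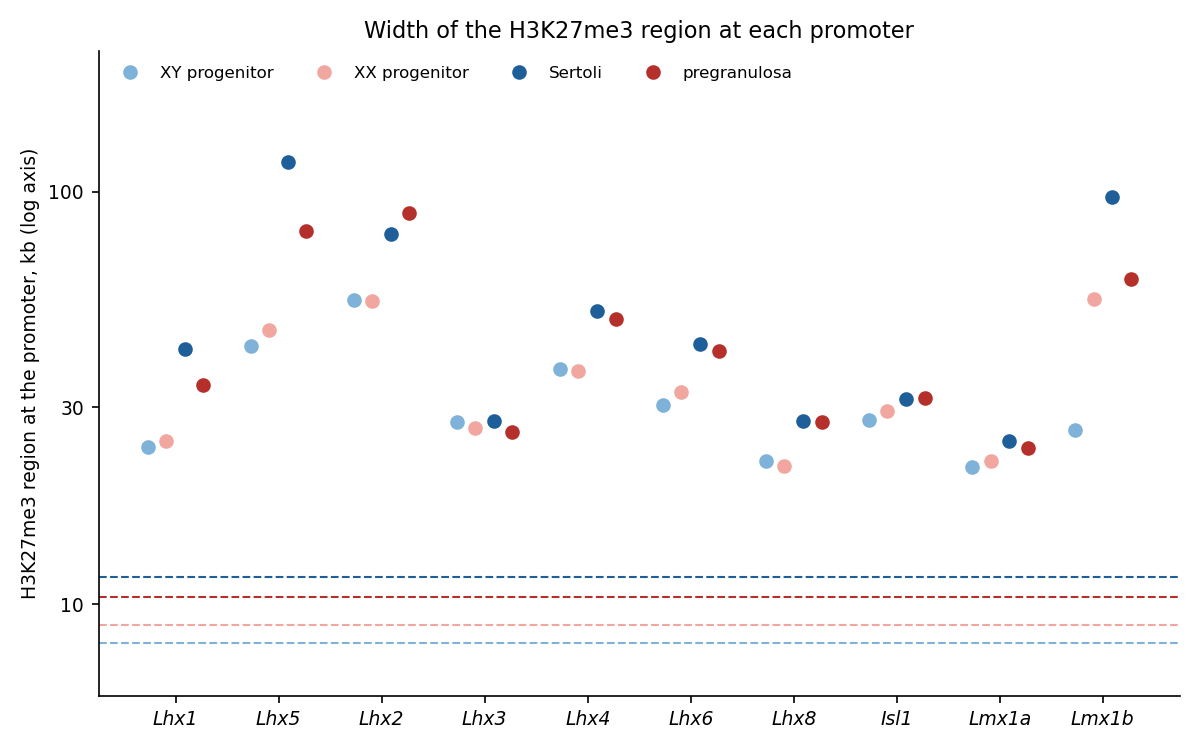
Width in kb of the H3K27me3 region at each promoter (log axis), 1 point for each population, with dashed lines for the median over marked autosomal protein-coding promoters in the population of the same colour. All points lie above 20 kb and all 4 dashed lines lie below 12 kb, and Lhx5, Lhx2 and, except in XY progenitor cells, Lmx1b have the widest regions.

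Lhx1 and Lhx5 are paralogues expressed in developing forebrain and spinal interneurons, and Lhx1 is also needed for the kidney and for the Wolffian and Müllerian ducts. Lhx1 (chr11:84331479-84338923, minus strand, build NCBIM37, the same assembly as mm9) lay wholly inside its H3K27me3 region, which spanned 24034 bp in XY progenitor, 24843 bp in XX progenitor, 41522 bp in Sertoli and 34086 bp in pregranulosa cells. The added width was upstream of the gene, where the region reached 12.5, 11.3, 29.4 and 20.7 kb from the 5′ end. Its downstream edge lay between 11.5 and 13.6 kb in all 4. In Sertoli cells a gap of 3.84 kb separated it from a further 58.9 kb of H3K27me3 upstream, and joining regions within 5 kb gave 104 kb. H3K4me3 covered 85.8% and 89.9% of the Lhx1 gene body in XY and XX progenitor cells, and 22.1% and 43.0% in Sertoli and pregranulosa cells. The promoter window remained mostly covered, by 97.5%, 100%, 76.6% and 93.3%, so the difference lay in the body of the gene. In XX progenitor cells a single H3K4me3 region of 11023 bp ran through most of the gene, while the widest in Sertoli cells was 3066 bp and ended 1.65 kb past the 5′ end.

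Lhx5 (chr5:120881895-120891466, plus strand) had one of the widest H3K27me3 regions of the family, at 42.3, 46.2, 119 and 80.4 kb in the same order of populations. It reached 26.1, 28.5, 84.2 and 53.7 kb upstream and covered the whole gene in each. Gaps of 2.77, 0.618, 4.99 and 0.477 kb separated it from a further H3K27me3 region upstream, and joining regions within 5 kb gave 96.4, 99.1, 263 and 116 kb. Its promoter window held no H3K4me3 in XY progenitor, Sertoli or pregranulosa cells and 1555 bp in XX progenitor cells. H3K4me3 was nevertheless listed within the Lhx5 gene body in every population, over 26.7%, 68.0%, 51.1% and 47.7% of it. Outside XX progenitor cells the region nearest to the 5′ end lay 2.31 kb upstream of it in XY progenitor cells, 3.71 kb downstream in Sertoli cells and 3.16 kb downstream in pregranulosa cells.

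Lhx2, required for the eye, forebrain and hair follicle and the closest relative of Lhx9, occupies chr2:38194801-38225253 on the plus strand. Its whole gene body was under H3K27me3 in every population, inside regions of 54.8, 54.4, 79.1 and 88.8 kb. As at Lhx1 the edge that differed was upstream, at 8.35 and 9.51 kb in XY and XX progenitor cells and at 33.8 and 41.9 kb in Sertoli and pregranulosa cells. The downstream edge lay between 44.9 and 46.9 kb in all 4. H3K4me3 covered 20.4%, 40.0%, 27.2% and 27.3% of the gene body in 4 to 6 regions. It covered 528, 2193, 1716 and 1994 bp of the window at the 5′ end.

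Lhx3 and Lhx4, paralogues that direct pituitary and motor neuron development, differed from each other in both marks. Lhx3 (chr2:26055732-26063769, minus strand) had nearly the same H3K27me3 region in each population, at 27.7, 26.8, 27.8 and 26.2 kb. Its upstream edge lay at most 2.38 kb from the 5′ end in any population. Its downstream edge lay 24.4 to 25.7 kb from the 5′ end, past the end of the gene. It was the sole member whose region was not wider in pregranulosa than in XX progenitor cells. H3K4me3 touched the Lhx3 promoter window in XY progenitor cells alone, over 387 bp, and covered 12.5%, 30.5%, 18.8% and 25.8% of the gene body.

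Lhx4 (chr1:157548827-157589157, minus strand) had H3K27me3 regions of 37.3, 36.8, 51.6 and 49.1 kb. The added width lay mostly within the gene, and the share of the gene body covered was 58.5% and 55.1% in XY and XX progenitor cells and 85.8% and 83.7% in Sertoli and pregranulosa cells. The values at each stage were close to each other between the sexes. H3K4me3 covered 67.9%, 100%, 76.6% and 86.5% of the Lhx4 promoter window, compared with at most 9.67% at Lhx3.

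Lhx6 and Lhx8 act in ventral forebrain neurons and in tooth development, and Lhx8 is also known for its role in oocytes. Lhx6 (chr2:35937470-35960928, minus strand) had H3K27me3 regions of 30.4, 32.7, 42.9 and 41.2 kb and 92.1% of its body covered in XY progenitor cells, with 100% in the other populations. H3K4me3 covered 2002, 2968, 2486 and 2734 bp of its promoter window. In XY progenitor cells it was split into 6 regions inside the H3K27me3 region, and in Sertoli cells into 2. Lhx8 (chr3:153969260-153993615, minus strand) had narrower H3K27me3 regions, at 22.3, 21.7, 27.8 and 27.7 kb. They covered 56.9%, 49.6%, 71.8% and 69.4% of the gene body. H3K4me3 covered 64.8%, 100%, 41.9% and 45.6% of the Lhx8 promoter window, which made the XX progenitor value the highest and the E13.5 values the lowest.

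Isl1, which acts in motor neurons, pancreatic islets and the cardiac progenitors of the second heart field, occupies chr13:117088478-117099896 on the minus strand. It showed little difference in H3K27me3. Its regions spanned 27.9, 29.4, 31.5 and 31.7 kb and covered the whole gene in each population. H3K4me3 differed more. It covered 46.4% and 57.4% of the Isl1 gene body in XY and XX progenitor cells and 15.6% and 11.8% in Sertoli and pregranulosa cells, while the promoter window was covered by 75.4%, 94.5%, 72.0% and 72.4%. Within the H3K27me3 region there were 6, 5, 4 and 2 H3K4me3 regions. The pair found in all 4 populations lay over the 5′ end and upstream of it, between positions -5.41 and -2.96 kb, and the regions 10.3 to 17.0 kb downstream of the 5′ end were listed in every population except pregranulosa cells.

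Lmx1a and Lmx1b, paralogues that act in the roof plate and in midbrain dopaminergic neurons, with Lmx1b also patterning the dorsal limb and the kidney glomerulus, were the longest genes of the family. Lmx1a (chr1:169619370-169778872, plus strand) is 159503 bp long, and its promoter lay in an H3K27me3 region of 21.6, 22.2, 24.9 and 23.9 kb. In the same order of populations 20.6%, 25.8%, 58.5% and 57.2% of the Lmx1a gene body was under H3K27me3, in 3, 4, 5 and 5 regions. The body coverage at E13.5 was thus more than at E10.5 in each sex. The region at the 5′ end itself was 1.16 times as wide in Sertoli as in XY progenitor cells. It was 1.08 times as wide in pregranulosa as in XX progenitor cells. In Sertoli cells a gap of 0.820 kb separated that region from 29.6 kb of H3K27me3 upstream, and joining regions within 5 kb gave 69.3 kb. H3K4me3 covered 88.4%, 74.3%, 48.2% and 51.8% of the Lmx1a promoter window.

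Lmx1b (chr2:33416485-33496031, minus strand) had the largest ratio of the family, with H3K27me3 regions of 26.5 kb in XY progenitor and 97.4 kb in Sertoli cells. XX progenitor and pregranulosa cells gave 55.0 and 61.5 kb. In XY progenitor cells a gap of 0.863 kb within the gene separated the region at the promoter from another of 24.2 kb, and with regions within 5 kb joined the 4 widths were 51.6, 55.0, 118 and 89.1 kb. Joined in this way, the ratio of Sertoli to XY progenitor width was 2.29 at Lmx1b, below 4.34 at Lhx1, 3.21 at Lmx1a and 2.73 at Lhx5. The gene body was covered by 80.8%, 86.0%, 100% and 93.2%, a smaller difference than the widths. H3K4me3 covered 51.0%, 100%, 25.0% and 81.9% of the Lmx1b promoter window, and the Sertoli value was the lowest among the 8 members bivalent in all populations except for Lhx2 in XY progenitor cells, at 13.2%.

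**Figure D3:**
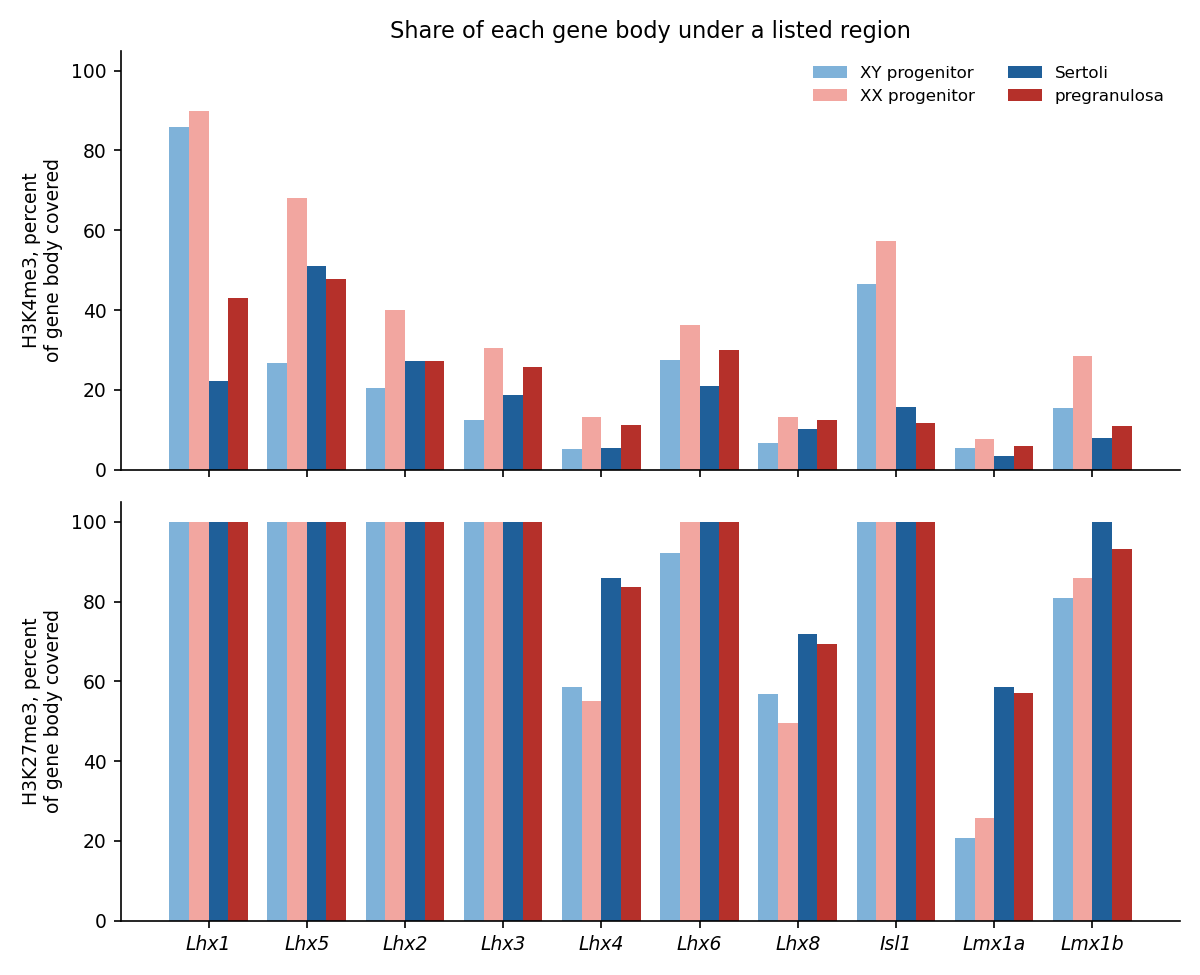
Percent of each gene body covered by listed H3K4me3 regions (upper) and H3K27me3 regions (lower), 1 bar for each population, from 1 list each and so without error bars. H3K4me3 covers 85.8% and 89.9% of Lhx1 at E10.5 and 22.1% and 43.0% at E13.5, and H3K27me3 covers 5 genes whole in every population.

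Summed over the 10 gene bodies, H3K27me3 covered 223, 234, 315 and 306 kb in XY progenitor, XX progenitor, Sertoli and pregranulosa cells, and H3K4me3 covered 52.5, 86.4, 39.3 and 52.4 kb. The median member had 96.1%, 100%, 100% and 100% of its body under H3K27me3, compared with 25.1%, 27.2%, 43.7% and 34.4% for protein-coding genes with H3K27me3 at the promoter in every population. From XX progenitor to pregranulosa cells all 10 members had less of the gene body under H3K4me3, while 46.7% of 16144 protein-coding genes had less and 49.7% had more. From XY progenitor to Sertoli cells 5 members had less (Lhx1, Lhx6, Isl1, Lmx1a and Lmx1b) and 5 had more, beside 33.7% and 63.6% of 16036 protein-coding genes. All 10 members had more of the gene body under H3K4me3 in XX than in XY progenitor cells, as did 77.4% of 16008 protein-coding genes, and the XX progenitor list was also the deepest of the 3 of known depth. The Sertoli list came from more tags than the XY progenitor list and had the lower sum of H3K4me3 in the members. The part of depth in these differences was not tested.

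The annotation gives 21 distinct protein-coding transcript starts for the 10 genes, and some starts of the same gene differed. Within 500 bp of a start H3K27me3 was present at 21 of 21 in every population, compared with 20.0%, 22.8%, 20.5% and 21.3% of the 45993 protein-coding starts of all genes. H3K4me3 was present at 18, 18, 16 and 17 of the 21, compared with 62.4%, 64.9%, 63.7% and 65.0%. The Lhx2 starts Lhx2-003 and Lhx2-001 lie 12027 bp apart. The downstream one, Lhx2-001, had H3K4me3 over all 1001 bp around it in every population, and the upstream one, Lhx2-003, had 0, 1001, 801 and 1001 bp. At Lhx3 the start at the 5′ end of the gene, Lhx3-002, had none in any population, and Lhx3-001, which lies 1.67 kb downstream, had 561 bp in XY progenitor cells and none elsewhere. In XX progenitor, Sertoli and pregranulosa cells the H3K4me3 region nearest to the 5′ end of Lhx3 began 4.32, 4.36 and 4.72 kb downstream, over a pair of annotated starts that are not protein-coding. At Lmx1b the start 8.24 kb inside the gene, Lmx1b-002, had 1001, 1001, 0 and 706 bp, and the second Lhx1 start, Lhx1-002, had 1001, 1001, 0 and 990 bp, so that both lacked H3K4me3 in the Sertoli list alone.

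**Figure D4:**
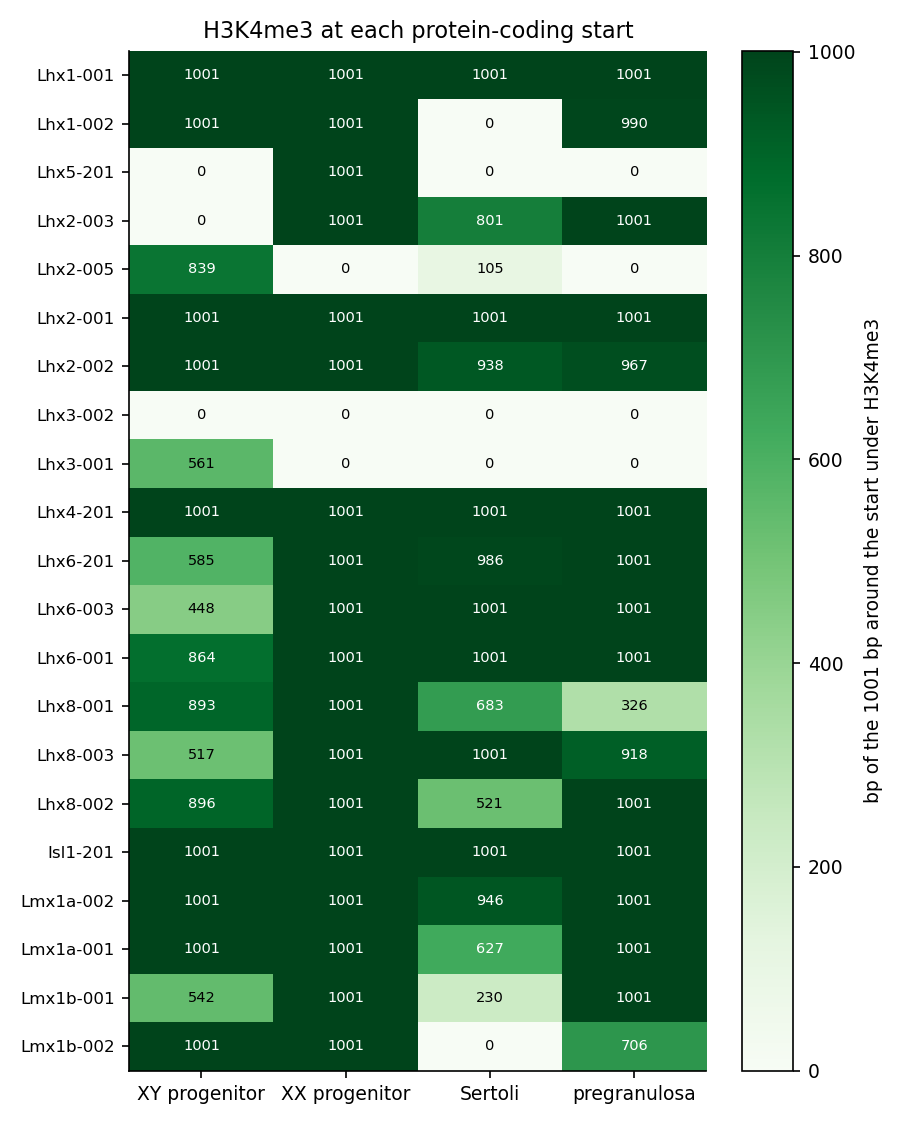
H3K4me3 around each of the 21 protein-coding starts, as bp of the 1001 bp centred on the start, with a column for each population and the starts of a gene in transcript order. The starts of Isl1 and Lhx4, Lhx1-001 and Lhx2-001 have 1001 bp in all 4 columns, and Lhx3-002 has 0 in all 4.

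The 250 bases before 5 of these starts are shown because they set starts with H3K4me3 in every population beside starts that lacked it in some or all. They are taken from NCBIM37, run 5′ to 3′ on the strand of the gene up to the base before the start, lie outside annotated exons, and have each CG dinucleotide in capitals. The labels refer to H3K4me3 within 500 bp on either side of the start, not to the printed bases alone.
Isl1 start, chr13:117099897-117100146, minus strand, H3K4me3 in all 4 populations: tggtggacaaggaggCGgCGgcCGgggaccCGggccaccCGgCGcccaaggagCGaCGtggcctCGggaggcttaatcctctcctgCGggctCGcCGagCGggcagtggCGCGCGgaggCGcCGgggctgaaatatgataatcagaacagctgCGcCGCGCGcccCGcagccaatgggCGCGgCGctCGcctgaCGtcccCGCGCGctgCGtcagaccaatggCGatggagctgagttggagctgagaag
Lhx2-001, chr2:38206578-38206827, plus strand, H3K4me3 in all 4 populations: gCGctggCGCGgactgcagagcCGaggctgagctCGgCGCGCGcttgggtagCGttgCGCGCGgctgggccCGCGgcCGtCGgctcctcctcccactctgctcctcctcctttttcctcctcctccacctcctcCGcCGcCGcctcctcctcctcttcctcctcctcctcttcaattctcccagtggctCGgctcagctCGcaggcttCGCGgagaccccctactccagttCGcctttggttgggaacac
Lhx2-003, chr2:38194551-38194800, plus strand, no H3K4me3 in XY progenitor cells: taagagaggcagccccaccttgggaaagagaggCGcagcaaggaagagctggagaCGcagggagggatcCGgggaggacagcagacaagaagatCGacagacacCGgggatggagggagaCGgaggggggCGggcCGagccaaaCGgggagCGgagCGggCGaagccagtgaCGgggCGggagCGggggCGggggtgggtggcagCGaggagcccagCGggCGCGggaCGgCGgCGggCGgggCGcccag
Lhx3-001, chr2:26062096-26062345, minus strand, H3K4me3 in XY progenitor cells alone: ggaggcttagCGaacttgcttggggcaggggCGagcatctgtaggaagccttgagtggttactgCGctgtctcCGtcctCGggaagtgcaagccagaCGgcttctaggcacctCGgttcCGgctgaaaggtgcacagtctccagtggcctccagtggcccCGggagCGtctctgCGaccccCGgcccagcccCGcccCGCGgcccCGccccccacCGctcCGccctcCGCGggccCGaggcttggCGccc
Lhx3-002, chr2:26063770-26064019, minus strand, no H3K4me3 in any population: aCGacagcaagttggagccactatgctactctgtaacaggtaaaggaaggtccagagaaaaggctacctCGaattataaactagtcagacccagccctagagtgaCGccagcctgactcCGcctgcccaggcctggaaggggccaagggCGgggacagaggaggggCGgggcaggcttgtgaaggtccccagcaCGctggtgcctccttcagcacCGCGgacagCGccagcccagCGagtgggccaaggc
The stretch before the Isl1 start holds 33 CG, a count reached by 4.50% of protein-coding genes in the 250 bases before the 5′ end. Lhx2-003 holds 25 and Lhx2-001 holds 24. Lhx3-001 holds 22 (17.0%) and Lhx3-002 holds 11 (44.1%).

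CG content was high at most of the family. In the 1001 bp centred on the 5′ end the members held a median of 77.0 CG, with 41.0 for all protein-coding genes and 54.0 for those with H3K27me3 in every population. The ratio of observed to expected CG had medians of 0.73, 0.55 and 0.63 in the same order. Lmx1b had the most CG at 104, and Lhx3 the fewest at 25 with a ratio of 0.31, followed by Lhx8 with 37 and 0.61. CG-rich stretches were defined as windows of 200 bp with at least 50% G and C and a ratio of at least 0.6, joined where they overlapped. They made up 20.4%, 19.3%, 13.8% and 15.2% of the members' H3K27me3 regions in XY progenitor, XX progenitor, Sertoli and pregranulosa cells. Of the H3K4me3 regions inside, 36 of 40, 34 of 41, 32 of 35 and 30 of 31 met a CG-rich stretch, compared with 86.3%, 85.4%, 84.4% and 77.7% of autosomal H3K4me3 regions that touched H3K27me3 anywhere.

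Inside the H3K27me3 regions of the 10 genes H3K4me3 took up 64.3 of 315 kb in XY (20.4%) and 114 of 350 kb in XX progenitor cells (32.7%), and 64.0 of 464 kb in pregranulosa cells (13.8%). The share was lowest in Sertoli cells, at 54.6 of 543 kb. At Lhx1 these sums include part or all of an H3K4me3 region that spans the 5′ end of the neighbouring gene Aatf. That part came to 846 bp in XY progenitor, 2366 bp in XX progenitor, 1362 bp in Sertoli and 2909 bp in pregranulosa cells. The counts of regions that met a CG-rich stretch include it too. The lowest member share in XY progenitor cells was 3.61%, at Lhx3, and the highest was 43.1%, at Isl1. The Sertoli shares ran from 5.44% at Lhx3 to 22.4% at Isl1. H3K4me3 regions no wider than 1001 bp accounted for 22 of the 40 in the XY progenitor list, 6 of 41 in the XX progenitor list, 9 of 35 in the Sertoli list and 6 of 31 in the pregranulosa list.

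The H3K27me3 regions overlapped few other protein-coding genes. At Lhx2, Lhx4, Lhx8, Isl1, Lmx1a and Lmx1b they reached none in any population. The region at Lhx1 took in the 5′ end of the neighbouring Aatf, a transcriptional cofactor gene, over 1677 bp in XX progenitor, 252 bp in Sertoli and 1462 bp in pregranulosa cells, and the Aatf promoter was bivalent there. The region at Lhx5 covered 54.6% of Sdsl, a serine dehydratase-like gene, in Sertoli cells and 2.39% in pregranulosa cells, without reaching the 5′ end of Sdsl. At Lhx3 the region overlapped the 3′ part of Qsox2, a sulfhydryl oxidase gene, by 5.31%, 2.22%, 4.05% and 3.39%, and the Qsox2 promoter had H3K4me3 alone. At Lhx6 it covered 20.3% and 17.7% of Morn5 in Sertoli and pregranulosa cells and 1.84% of Rbm18 in Sertoli cells, and both promoters had H3K4me3 alone. Non-coding genes named after their values were seen lay wholly within the regions in every population, namely 1500016L03Rik at Lhx1, Gm13584 at Lhx2, Gm13553 at Lhx3 and C130021I20Rik at Lmx1b. Both 1500016L03Rik and C130021I20Rik extend into the promoter windows of Lhx1 and Lmx1b, respectively. H3K4me3 in those windows therefore cannot be assigned to the LIM homeobox gene alone.

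The remaining LIM homeobox genes gave contrasting values. Lhx9 (chr1:140721763-140745153, minus strand) was bivalent in both progenitor populations and in Sertoli cells, with H3K27me3 regions of 25.7, 24.4 and 18.0 kb, and had no listed H3K27me3 over its promoter or body in pregranulosa cells. Its gene body was under H3K4me3 by 65.2%, 66.2%, 47.7% and 77.2%, more than any of the 10 members in pregranulosa cells, where the highest was 47.7% at Lhx5. Isl2 (chr9:55386479-55393987, plus strand), a motor neuron factor, was bivalent in all 4 populations and wholly under H3K27me3, in regions of 17.9, 19.4, 20.4 and 21.3 kb.

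The genes for LIM cofactors had H3K27me3 at fewer promoters than the LIM homeobox genes. Ldb1 and Ldb2, the adaptors that bind the LIM domains, and Ssbp2 and Ssbp3, single-stranded DNA-binding proteins that stabilize LDB1, had H3K4me3 without H3K27me3 in every population. H3K27me3 was present at 2, 4, 2 and 4 of the 10 cofactor promoters in XY progenitor, XX progenitor, Sertoli and pregranulosa cells. The shares over all protein-coding promoters were 23.1%, 24.8%, 23.6% and 23.7%, so the cofactors were not set apart by a low count. Of the LIM-only genes, whose products compete with LIM homeodomain proteins for LDB1, Lmo1 was bivalent throughout. In XX progenitor cells that call rested on 212 bp of H3K27me3 in the Lmo1 window. Lmo4 had 13 and 1255 bp of its window under H3K27me3 in XY and XX progenitor cells, 0 in Sertoli cells and all 4001 bp in pregranulosa cells. Lmo2 had neither mark at its 5′ end in progenitor cells, H3K27me3 in Sertoli cells and both marks in pregranulosa cells, and Lmo3 had H3K4me3 in XX progenitor cells alone. Ssbp4 had 1896 bp of H3K27me3 in XX progenitor cells and none elsewhere. Rlim, an X-linked gene for a ubiquitin ligase that acts on LDB1, was covered by H3K27me3 in the XX populations, within regions of 546 kb in XX progenitor and 284 kb in pregranulosa cells, and had none in the XY populations.

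Other homeobox and paired-box families gave counts near those of the LIM homeobox genes. All 14 Nkx genes and all 9 Pax genes had H3K27me3 at the promoter in every population. The bivalent Nkx genes numbered 11, 13, 12 and 12 of 14 and the bivalent Pax genes 8, 8, 7 and 8 of 9 in XY progenitor, XX progenitor, Sertoli and pregranulosa cells. Median H3K27me3 widths were 32.1, 26.9, 38.1 and 36.8 kb for Nkx genes and 33.6, 34.2, 48.9 and 38.6 kb for Pax genes, so the LIM homeobox medians of 27.8, 31.0, 42.2 and 37.6 kb were not set apart. The shares of the 20 kb around the 5′ end covered by each mark in each population gave 8 values per gene. The protein-coding genes outside the family nearest to the members' median of these 8 shares, by Euclidean distance in percentage points, were the homeobox gene Gsc and Gm10000, which had the same shares, at 5.39, the kinase gene Rps6ka4 at 6.54, the POU factor gene Pou3f1 at 7.36 and the homeobox gene Dlx4 at 7.70. Among the members Lhx6 was nearest at 4.42 and Lhx3 farthest at 81.9, with 1419 genes outside the family nearer than Lhx3.

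**Figure D5:**
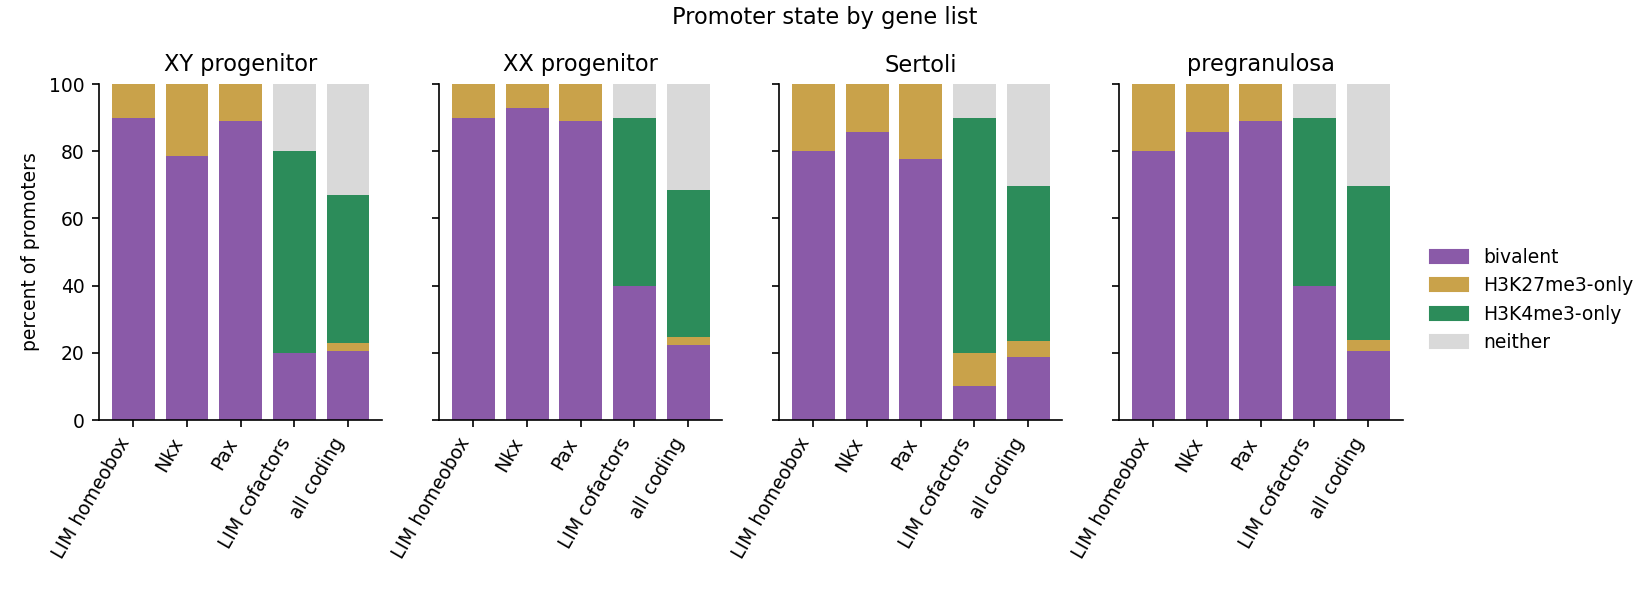
Percent of promoters with both marks, H3K27me3 alone, H3K4me3 alone or neither, with a panel for each population and bars for the 10 LIM homeobox genes, 14 Nkx genes, 9 Pax genes, 10 LIM cofactor genes and all 22350 protein-coding genes. H3K27me3, alone or with H3K4me3, is at every promoter of the first 3 bars and at 2 to 4 of the 10 cofactor promoters.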

How the data were processed

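Per the labels and the methods of the study, the authors trimmed reads with Trim Galore, aligned them with Bowtie to mm9, and called H3K4me3 and H3K27me3 regions with HOMER findPeaks in histone style over the H3 samples. The headers of 6 lists give peak sizes of 1000 and 5000 bp, at least 4-fold enrichment over input and a p-value of 0.0001; a pair of lists has no header. The methods describe calls per replicate, but the series description says that both replicates were combined, and 4 headers name joined tag directories. The deposited lists hold positions and a constant score column, so presence was used and no level.

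Overlapping peaks of a list were joined, and regions were intersected with GENCODE M1 (NCBIM37) promoters (5′ end ± 2 kb) and gene bodies in Python 3.11.15 with NumPy 2.4.6. Chromosome Y was left out. Widths were compared with autosomal promoters only. Interval and CG steps were tested on simulated data. Genes named were the members, Lhx9, Isl2, LIM cofactors, coding genes reached by a member's H3K27me3 region, the 5 nearest profiles, and markers whose state went against their list. Members and lists were chosen with earlier results of these data known. RefSeq promoter sequences (GRCm38.p6) were matched to NCBIM37 for 9 of 10 members, at 13 starts. No protein sequence was used, and 1 promoter sequence is not reported here.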

Additional observations from a re-analysis of the deposited data

Results flagged for a closer look

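The following members moved in opposite directions in the XY and XX lineages between E10.5 and E13.5. Each condition is 1 list, so these differences were not tested, and tag depth differed between the lists where it is known. Promoter-window H3K4me3 was larger by 1.19 kb in Sertoli than in XY progenitor cells at Lhx2, by 0.350 kb at Lhx4 and by 0.484 kb at Lhx6. From XX progenitor to pregranulosa cells the same windows differed by -0.199 kb at Lhx2, -0.542 kb at Lhx4 and -0.234 kb at Lhx6. Among protein-coding genes with H3K4me3 in the window in either list, 68.6% had more in Sertoli than in XY progenitor cells. In pregranulosa cells 52.7% had less than in XX progenitor cells and 43.3% had more.

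Gene-body H3K4me3 was larger in Sertoli than in XY progenitor cells by 2.34 kb at Lhx5, 2.06 kb at Lhx2, 0.509 kb at Lhx3, 0.111 kb at Lhx4 and 0.882 kb at Lhx8. From XX progenitor to pregranulosa cells it differed by -1.95 kb at Lhx5, -3.86 kb at Lhx2, -0.383 kb at Lhx3, -0.787 kb at Lhx4 and -0.198 kb at Lhx8. Gene-body H3K4me3 over protein-coding genes was larger in Sertoli than in XY progenitor cells at 63.6%. It was smaller in pregranulosa than in XX progenitor cells at 46.7% and larger at 49.7%. The H3K27me3 region at Lhx3 differed by 0.0550 kb from XY progenitor to Sertoli cells and by -0.582 kb from XX progenitor to pregranulosa cells. Both differences are small beside its widths of 26.2 to 27.8 kb, and no minimum size was set for naming a member here.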

How the results depend on the processing

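Counts of marked and bivalent members, covered bases, region widths and marked starts were recomputed under 12 settings, which gave 182 values, and 176 of them stayed within 1.5 times the reported value. The 176 include values that could not move. Leaving listed peaks unjoined could not change its 12 values, because covered bases do not depend on joining. Bivalent counts also repeat the H3K4me3 counts wherever every member has H3K27me3. Keeping the widest 75% of regions left 5 members with H3K4me3 and 5 bivalent members in XY progenitor cells, compared with 9 of each. That cut is decided by ties, since 48.2% of the list is no wider than 1001 bp, and keeping only H3K4me3 regions wider than 1001 bp also left 5 and 5. Requiring 50% of the window to be covered left 4 members with H3K4me3 and 4 bivalent members in Sertoli cells, compared with 8 of each. Reducing each list to the length of the shortest list of its mark, 37849 and 9309 regions, moved none of 40 values by that much, but it left the shortest lists as they were and removed no H3K27me3 region over 6505 bp, so the H3K27me3 regions at the members' promoters could not move. RefSeq starts, the wider window around transcript starts, the limit of 1001 bp, and the repeats of widths, starts and stage differences on reduced or merged lists were chosen after the data were seen. With chromosome X included, the percentile of the median member width was 85.6 in XX progenitor and 88.5 in pregranulosa cells. No paired analysis was possible because each mark and population has 1 list, and for the same reason no replicate could be left out. A list records calls at its own depth, so a region that is not listed may lie under the calling threshold. Differences in depth between the populations cannot be told apart from differences between the cells.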
